A study of Arabidopsis thaliana with 10 samples.

Results

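Gene expression was compared between dC26 and dC27, the pair of Arabidopsis thaliana lines in this study that carry the same truncated TaSIN transgene. The members were taken by array title, as the 2 arrays of ΔC26 and the 2 arrays of ΔC27, 4 of the 10 arrays in all. Both lines express constitutively a shortened TaSIN from which the transmembrane motif is missing, FL3 expresses the full-length protein, VC carries an empty vector, and Col-0 is the untransformed wild type. Every array was made from RNA of whole seedlings that were 12 days old and had grown without stress, and the 2 arrays of each line are described as biologically independent. The labels do not state the promoter, the number of insertions in a line or the number of seedlings behind an array. No probe set was named for TaSIN, so the level of the transgene in either line was not measured. The comparison asks which transcripts differ between lines that share a construct, and VC against Col-0, the other pair of lines with no designed difference in TaSIN, was set beside it.

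Transgenic lines of a single construct are separate integration events and can differ in how strongly they express the transgene and in what the insertion does to its surroundings, which is why several lines are usually examined. The processes named most often below are those of the chloroplast and of protein synthesis. The chloroplast NDH complex passes electrons from ferredoxin back to plastoquinone around photosystem I, the Calvin-Benson cycle fixes carbon dioxide, and photorespiration salvages the product of the oxygenase reaction of Rubisco. Ribosomes are assembled in the nucleolus with the help of many factors that are not part of the finished particle, and the CCT chaperonin of the cytosol folds actin, tubulin and other proteins.

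Values are the deposited intensities, on a linear scale, and differences are dC26 minus dC27 on the log2(intensity + 16) scale, so a negative difference is a higher value in dC27. Differences are given with their SE from limma, and passing the threshold means a Benjamini-Hochberg adjusted p under 0.05 over all 22746 probe sets. Array medians lay between 41.7 and 44.2. The 2 arrays of dC26 correlated at 0.986 over probe sets and those of dC27 at 0.971, against 0.991 to 0.993 in the other lines, and dC26 array 1 and both dC27 arrays correlated better with an FL3 array than with their own replicate. At least 2-fold gaps between the arrays of a line were found for 706 probe sets in dC27, 538 of them higher in array 1, and for 214 in dC26, against 74 to 131 in the other lines. Green-tissue genes were bright on all 10 arrays, and of the root markers PYK10 was bright while the root hair genes EXPA7 and EXPA18 were dim on every array, at 7.55 to 54.0.

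Between dC26 and dC27, 670 of 22746 probe sets passed the threshold, which is 2.95%. Of these, 483 were higher in dC26 (2.12% of all) and 187 were higher in dC27 (0.822%), and 262 differed at least 2-fold (1.15%), 218 of them higher in dC26. In VC against Col-0, 6 probe sets passed (0.0264%), 5 higher in VC (0.022%) and 1 lower (0.0044%). At an unadjusted p under 0.05 the numbers were 4034 and 1594. Among the 13286 loci with a named probe set, 342 passed (2.57%), of which 231 were higher in dC26 (1.74%) and 111 were higher in dC27 (0.835%). For 555 of the 670 probe sets the mean of the control lines lay nearer to dC26 than to dC27: 374 of the 483 higher in dC26 and 181 of the 187 higher in dC27. The same share over all probe sets was not counted. Over all of them dC27 lay further from the controls. The SD of log2 differences of line means from VC and Col-0 was 0.435 and 0.457 in dC27, and 0.309 and 0.344 in dC26. Against the controls themselves, 617 probe sets passed in dC26 (2.71%), 435 of them higher (1.91%) and 182 lower (0.8%). In dC27 3797 passed (16.7%), 1866 higher (8.2%) and 1931 lower (8.49%), and these contrasts use the same control arrays.

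**Figure D1:**
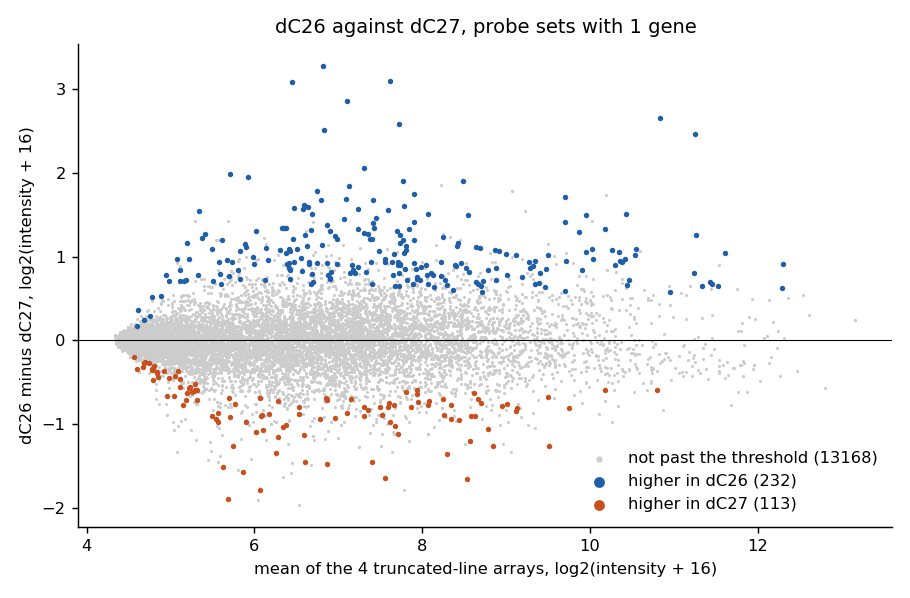
The x axis gives the mean of the 4 truncated-line arrays and the y axis the difference dC26 minus dC27, both on the log2(intensity + 16) scale, with 1 point for each of the 13513 probe sets with 1 gene. The 232 blue points passed the threshold higher in dC26 and reach 3.28, and the 113 orange points passed higher in dC27 and reach -1.89.

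These counts rest on few arrays. Fitting the 4 truncated-line arrays alone left 16 probe sets past the threshold, all higher in dC26, and the same kind of fit to the VC and Col-0 arrays alone gave 15, 2 higher in VC and 13 lower, against 6 in the fit over all lines. Array weights estimated from the spread came out equal for the 2 arrays of each line, 0.686 in dC26 and 0.757 in dC27. They thus weighed lines and could not set a single array apart. With these weights 171 probe sets passed between dC26 and dC27. Replicate log2 differences had an SD of 0.293 in dC26 and 0.415 in dC27, against 0.206 to 0.236 in the other lines that share the estimate. Without dC26 array 2 the count was 109 and without dC27 array 2 it was 1448, 777 of which were then higher in dC27. The arrays of the truncated lines did not overlap for any of the 670, which is true of 43.2% of all probe sets (22.9% higher in dC26 and 20.3% higher in dC27), and 92 of the 670 passed again when each of the 4 truncated-line arrays was left out in turn.

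**Figure D2:**
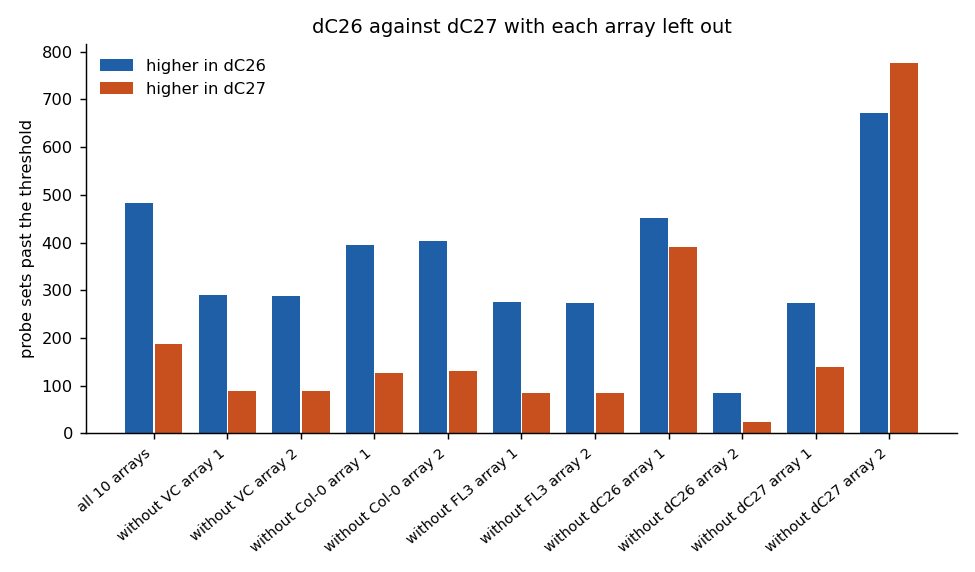
Bars give the number of probe sets past the threshold in dC26 against dC27, higher in dC26 (blue) or in dC27 (orange), with all 10 arrays and with each array left out. The count higher in dC26 runs from 84 without dC26 array 2 to 671 without dC27 array 2.

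In the list of nuclear photosynthesis genes, the members that passed were all higher in dC26. Like the other lists, it was chosen with earlier results of these data known, so its counts describe the data and carry no test. The list holds 48 genes, of which 8 were measured, that is, matched to a probe set with 1 gene. Most other lists were also measured only in part. All 8 measured members had a positive difference and non-overlapping arrays, against 21.5% of named loci with non-overlapping arrays higher in dC26. Of the 8, 3 passed the threshold higher in dC26, against 1.74% of named loci, and none higher in dC27. The list's median difference was 0.63, against -0.0028 over all loci. LHCB4.2, an antenna protein of photosystem II, was at 1259.6 and 1429 in the dC26 arrays, 402 and 604 in dC27, 1156 and 718 in FL3 and between 1323 and 2012 in the controls. The dC27 arrays were the lowest of all 10, and the difference was 1.42 ± 0.24 (limma adjusted p = 0.0173). PRK, phosphoribulokinase, which regenerates the acceptor of carbon dioxide, was at 2062 and 2152 in dC26 and 1003 and 1065 in dC27, with controls between 1593 and 2170.4, a difference of 1.02 ± 0.16 (limma adjusted p = 0.0151). PSAN, a subunit of photosystem I, was at 3248 and 3107 against 1764 and 1861, a difference of 0.80 ± 0.13 (limma adjusted p = 0.0138). For both genes the dC27 arrays lay below every other array. The other 5 members, LHCB4.1, RCA, PSBW, PSAE-1 and PSBY, differed by 0.48 to 0.65 and did not pass, with adjusted p from 0.0580 to 0.0858. The 3 calls did not hold without dC26 array 2, and not all held without dC27 array 1. All 8 members passed when dim probe sets were left out of the fit, where 866 of 15164 probe sets passed, against 670 of all in the main fit. Without the intensity trend 6 members passed, beside 793 of all probe sets. With the robust prior 5 members passed, beside 782, and with array weights 1 passed, beside 171. In whole-seedling RNA, fewer cells of a type and less RNA per cell cannot be told apart.

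Summed over the 8 photosynthesis genes, intensity was 26879 and 29445 in dC26, 17250 and 18982 in dC27, and 23419 to 25694 in the controls. The 3 root markers summed to 2846 and 2629 in dC26 and 3931 and 3462 in dC27, within the control range of 2850 to 5037 or just below it. The root sum is nearly all PYK10, which differed by -0.44 ± 0.24 and did not pass (limma adjusted p = 0.385). The 3 guard cell markers summed to 88.8 and 101 in dC26 and 72.9 and 71.7 in dC27, below the control range of 94.5 to 149 on 3 of these 4 arrays, and none of them passed between dC26 and dC27. FMA, at 67.7 and 75.5 in dC26, 56.1 and 51.3 in dC27 and between 78.1 and 129.8 in the controls, was lower in dC27 than in the controls (-0.74 ± 0.17, limma adjusted p = 0.0166). The part of these cell types in the differences was not tested. Markers of seed storage, shoot meristem and epidermis had 1 measured gene each, at or below 14.7 on every array.

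Genes of the chloroplast NDH complex were also higher in dC26. This group and the others named as added lists were drawn up after the values had been seen. The remaining lists were chosen with earlier results of these data known. Counts of both kinds thus describe the data and carry no test. All 4 measured members, from 23 listed, passed higher in dC26, against 1.74% of named loci, with a median difference of 1.29. NdhN, a subunit of the complex, was at 396 and 451 in dC26, 117 and 111 in dC27, 209 and 223 in FL3 and between 162 and 339 in the controls. The dC26 arrays were the highest and the dC27 arrays the lowest of the 10, with a difference of 1.75 ± 0.19 (limma adjusted p = 0.00345). NdhL, another subunit, was at 542 and 693 in dC26, 198 and 218 in dC27 and between 361 and 418 in the controls. Its arrays were ordered the same way, with a difference of 1.49 ± 0.16 (limma adjusted p = 0.00300). PIFI, a chlororespiration protein, was at 2000.2 and 2357 against 1024 and 1002 and NdhS at 540.5 and 512 against 309 and 321, with differences of 1.09 and 0.71. NdhS was below its control range of 616 to 827 in both lines. Without dC26 array 2, PIFI and NdhS no longer passed (limma adjusted p = 0.0939 and 0.0679), and NdhN and NdhL did. NdhS also did not pass without dC27 array 1 (adjusted p = 0.0694), and with array weights 2 of the 4 passed.

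The enzymes of carbon fixation and photorespiration that passed lay on the same side. In the added Calvin-Benson list 2 of 4 measured members, from 23 listed, passed, both higher in dC26. Over all named loci 1.74% passed higher in dC26, the share for the next 2 lists as well. SBPASE, sedoheptulose-bisphosphatase, was at 1764 and 1950.2 in dC26, 883 and 885 in dC27 and between 951 and 1405 in the controls, which placed the controls between the lines, and the difference was 1.06 ± 0.14 (limma adjusted p = 0.00657). The other was PRK, described above. In the added photorespiration list 2 of 4 measured members, from 14 listed, passed. HPR, hydroxypyruvate reductase, was at 4328 and 4599.7 against 2405 and 1948 (difference 1.04, limma adjusted p = 0.0228). AT1G32470 was at 1678 and 1948 against 1076 and 1098 (difference 0.73, adjusted p = 0.0228). Both were lower in dC27 than on any control array. In the added list of plastid thioredoxins, which activate Calvin-Benson enzymes in the light, 2 of 6 measured members, from 11 listed, passed. TRXF2, an f-type thioredoxin, was at 285 and 235 against 123 and 134 (difference 0.93, limma adjusted p = 0.0139), and ATHM2, an m-type thioredoxin, was at 3363 and 3648 against 2166 and 2161 (difference 0.69, adjusted p = 0.0218). Of these lists, TRXF2 alone passed with any of the 4 truncated-line arrays left out, while without dC26 array 2 none of the Calvin-Benson or photorespiration members did, and 1 photorespiration member did without dC26 array 1 or dC27 array 1. Chlorophyll synthesis had no member past the threshold among 4 measured, from 17 listed. Its largest difference was CHLM, a methyltransferase of the pathway, at 0.51 ± 0.13 (limma adjusted p = 0.0777).

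**Figure D3:**
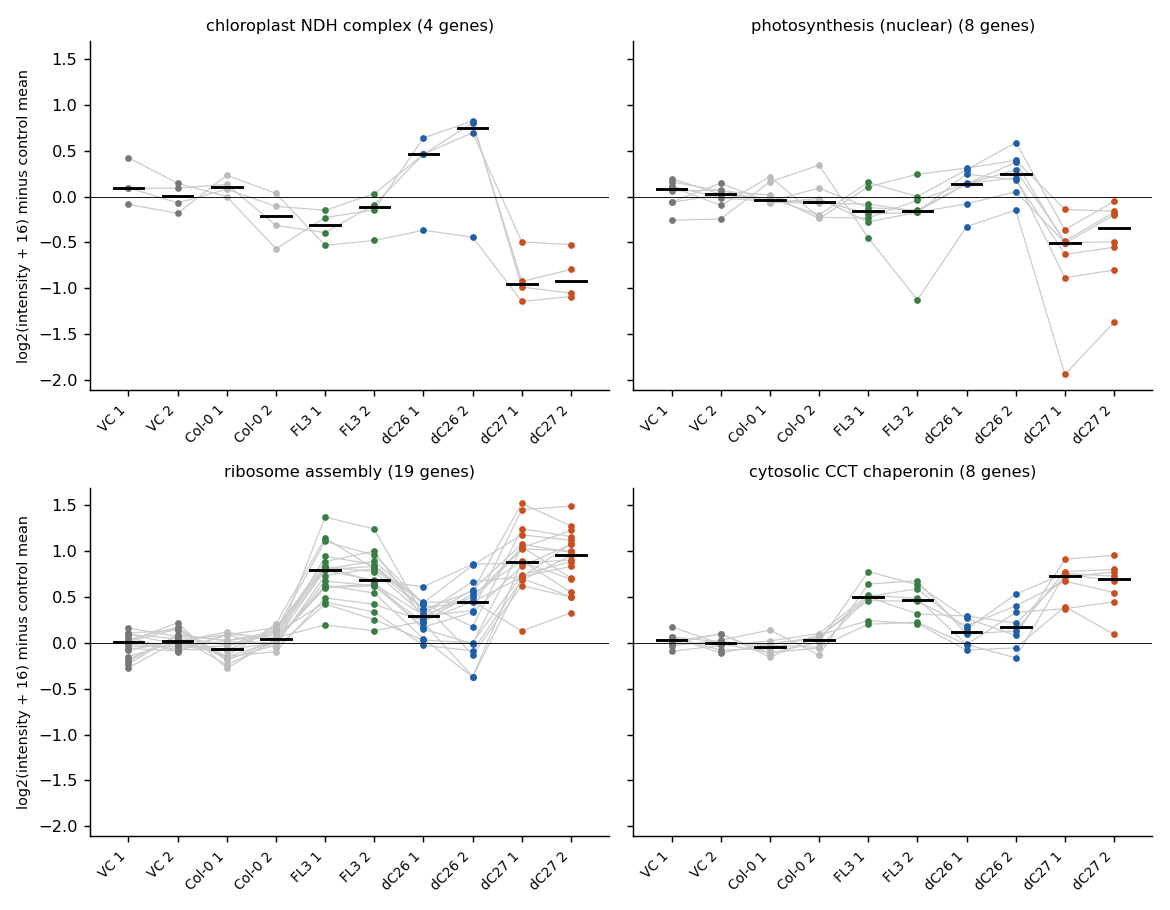
Each point is 1 gene on 1 array, as log2(intensity + 16) minus the mean of its 4 control arrays, for 4 gene lists; grey lines join a gene over the 10 arrays and black bars are the list's median on an array. Medians of the NDH complex are 0.46 and 0.75 in dC26 and -0.96 and -0.92 in dC27, and those of ribosome assembly are 0.29 and 0.45 in dC26, 0.88 and 0.95 in dC27 and 0.79 and 0.68 in FL3.

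AT1G66100, MSRB6, AT5G62360 and ECS1 were among the largest differences higher in dC26. AT1G66100 was at 352 and 319.6 in dC26, 24.3 and 16.7 in dC27, 60.7 and 34.9 in FL3 and between 181 and 288 in the controls. The dC26 arrays were above every control array and the dC27 arrays below, by a difference of 3.28 ± 0.24 (limma adjusted p = 0.000593). MSRB6, a methionine sulfoxide reductase, which returns oxidised methionine to its reduced form, was at 287 and 198 in dC26, 16.4 and 11.8 in dC27, 29.3 and 18.5 in FL3 and between 36.0 and 59.3 in the controls. Its dC26 arrays were the highest of the 10 and its dC27 arrays the lowest, with a difference of 3.09 ± 0.21 (limma adjusted p = 0.000497). AT5G62360 was at 605 and 509 in dC26, 64.1 and 39.9 in dC27 and between 67.7 and 197 in the controls, a difference of 3.09 ± 0.29 (limma adjusted p = 0.00187). ECS1 was at 4817 and 4345 in dC26, 565 and 893 in dC27 and between 3195 and 6185 in the controls, so that dC27 alone stood apart (difference 2.66 ± 0.28, limma adjusted p = 0.00300). Of the 76 genes past the threshold that were chosen for naming, these 4 also passed when the truncated-line arrays were fitted alone (adjusted p = 0.0465, 0.0465, 0.0465 and 0.0482).

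**Figure D4:**
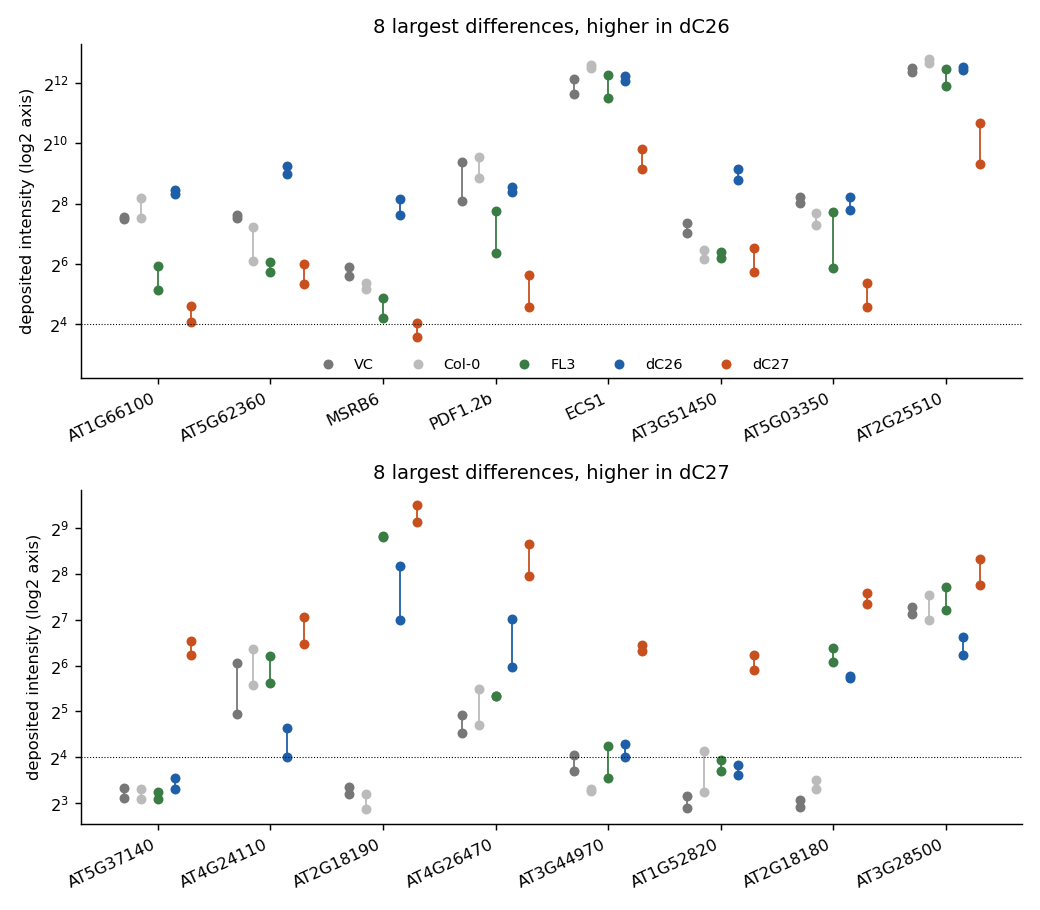
Deposited intensities of the 8 genes with the largest difference in each direction, on a log2 axis; a line joins the 2 arrays of a line, and the dotted line marks an intensity of 16, the value added before taking logs. AT1G66100 is at 319.6 to 352 in dC26 and 16.7 to 24.3 in dC27, and AT5G37140 is at 74.7 to 92.5 in dC27 and below 12 elsewhere.

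Among plant defensins and thionins, small cysteine-rich antimicrobial peptides, 2 of 15 members matched by gene name passed, both higher in dC26, against 1.74% of named loci. A member listed only under its locus can be missing from this count. PDF1.2b, a defensin induced by jasmonate with ethylene, was at 374 and 333 in dC26, 23.8 and 49.2 in dC27, 82.1 and 217 in FL3 and between 273 and 751 in the controls. The dC26 arrays lay inside the control range and the dC27 arrays below all others, with a difference of 2.86 ± 0.47 (limma adjusted p = 0.0171). Its near-identical copy PDF1.2 was at 43.6 and 52.8 against 9.66 and 6.29 and did not pass (1.42 ± 0.36, limma adjusted p = 0.0692), and how far each probe set reads only its own copy is uncertain. PDF1.4 was at 61.2 and 72.0 in dC26 and 21.8 and 24.6 in dC27, both below the control range of 74.9 to 194 (difference 1.07, limma adjusted p = 0.0205). PDF1.2b no longer passed without dC26 array 1 or array 2 (adjusted p = 0.0544 and 0.0979), nor PDF1.4 without dC26 array 2 or dC27 array 1 (adjusted p = 0.110 and 0.0606). In the jasmonate response list PDF1.2b was the one member of 4 that passed.

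AT2G43530 and AT2G43550, near neighbours that belong to the added list of trypsin inhibitors of the ATTI cluster, which block the digestive proteases of insects, differed almost alike. AT2G43530 was at 829.6 and 551 in dC26, 201 and 143 in dC27 and between 247 and 374 in the controls, and AT2G43550 at 420.4 and 392, 123 and 76.2 and between 132 and 291. In both, the dC26 arrays were the highest of the 10. Their differences were 1.90 ± 0.24 and 1.90 ± 0.23 (limma adjusted p = 0.00525 and 0.00469). The third measured gene of the cluster, AT2G43535, which lies between them, was at 305 and 257 against 262 and 236 and did not pass (0.16 ± 0.27, adjusted p = 0.815).

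The added list of jasmonate oxygenases, which inactivate jasmonic acid by hydroxylation, had 3 of 4 members past the threshold. All 3 were higher in dC26, against 1.74% of named loci. JRG21 was at 42.8 and 58.6 in dC26, 12.0 and 10.8 in dC27 and between 39.6 and 83.5 in the controls. Here dC27 stood below the other arrays while dC26 lay inside the control range, with a difference of 1.27 ± 0.17 (limma adjusted p = 0.00687). AT2G38240 was at 246 and 304 in dC26, 129 and 60.8 in dC27 and between 56.4 and 100.3 in the controls, and here dC26 stood above every other array (difference 1.46, adjusted p = 0.0385). AT5G05600 was at 264 and 363 against 148 and 130.4 (difference 1.07, limma adjusted p = 0.0191). None of the 3 passed without dC26 array 2 (adjusted p = 0.0532, 0.186 and 0.103).

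The other leading genes higher in dC26 carry no functional name in the tables used. AT3G51450 (difference 2.58 ± 0.23, limma adjusted p = 0.00179) was at 438 and 571 in dC26, above every other array, and at 91.4 and 53.1 in dC27, beside controls between 71.2 and 165. AT2G32160 was the opposite case, with dC26 at 87.3 and 88.6, inside the control range of 73.3 to 118, and dC27 at 7.32 and 13.6 (difference 1.99 ± 0.18, limma adjusted p = 0.00179). AT2G25510, bright in most lines, was at 5574 and 5897 in dC26, 634 and 1653 in dC27 and between 5267 and 7156 in the controls, and the dC27 arrays themselves were far apart. AT4G17470 lay on either side of the controls, at 87.2 and 121 in dC26, 17.2 and 12.7 in dC27 and between 31.4 and 59.8 in the controls (difference 1.95). AT5G03350, AT5G44680, AT3G60420 and AT4G17245 differed by 2.51, 2.06, 1.85 and 1.78. Of these 8, AT2G25510, AT5G03350 and AT5G44680 did not pass without dC26 array 2 (limma adjusted p = 0.0778, 0.121 and 0.134), nor did the last 2 of these without dC27 array 1 (adjusted p = 0.0517 and 0.0725) or AT5G44680 without dC26 array 1 (adjusted p = 0.0680).

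Some heat shock and cold genes were higher in dC26. Of 10 measured heat shock genes 3 passed, all higher in dC26, against 1.74% of named loci, with a list median of 0.23. AT5G48570 (ROF2), a heat-induced immunophilin, was at 126 and 103 in dC26, 38.7 and 31.9 in dC27 and between 25.5 and 39.4 in the controls. It stood above every other array in dC26 and inside the control range in dC27, with a difference of 1.35 ± 0.22 (limma adjusted p = 0.0163). Hop3, which passes client proteins from Hsp70 to Hsp90, was at 50.6 and 49.8 in dC26, 18.1 and 19.2 in dC27 and between 14.9 and 17.1 in the controls (difference 0.93 ± 0.12, limma adjusted p = 0.00636), and passed with any 1 array left out. AT1G54050 was at 97.4 and 108 against 44.7 and 38.9 (difference 1.04, adjusted p = 0.0308). Fes1A, which works with Hsp70, was at 222 and 221 against 101 and 133 and did not pass (0.85 ± 0.20, adjusted p = 0.0555). Of the other members, 5 differed by -0.13 to 0.05, and 4 of these were at or below 17.3 on every array. Without dC26 array 1 or array 2, AT5G48570 did not pass (adjusted p = 0.0504 and 0.0664), and AT1G54050 did not pass without any 1 of the truncated-line arrays (adjusted p from 0.0510 to 0.142) or either VC array.

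Of 4 cold-regulated genes, COR15A and COR15B, which encode protective proteins of the chloroplast stroma, passed higher in dC26, against 1.74% of named loci. COR15B was at 131 and 137 in dC26, 56.5 and 37.99 in dC27 and between 48.1 and 79.0 in the controls, and COR15A at 55.9 and 61.3, 30.8 and 21.3 and between 66.5 and 127. COR15B thus lay above the controls in dC26, whereas COR15A lay below them in both lines. The differences were 1.26 ± 0.25 and 0.84 ± 0.19 (limma adjusted p = 0.0298 and 0.0462), and neither passed without dC26 array 1, dC26 array 2 or dC27 array 2 (adjusted p from 0.0543 to 0.175). The dehydrins COR47 and LTI30 differed by -0.35 and -0.43 and did not pass.

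The ribosome assembly factors that passed were all higher in dC27. This added list was drawn up in part from genes that had passed, so its count is not independent of the values. Of 19 measured members, from 41 listed, 10 passed, all higher in dC27, against 0.835% of named loci. For 18 the difference was negative with non-overlapping arrays, against 20.2% of named loci with non-overlapping arrays higher in dC27, and the median was -0.70. AT3G12860 was at 35.3 and 37.3 in dC26, 98.4 and 101 in dC27, 92.2 and 82.8 in FL3 and between 23.8 and 28.6 in the controls. FL3 and dC27 stood together far above dC26 and the controls, and the difference was -1.15 ± 0.14 (limma adjusted p = 0.00515). AT3G18600 was at 203 and 236 in dC26, 472 and 396 in dC27, 360.1 and 282 in FL3 and between 138 and 180.3 in the controls (difference -0.93, adjusted p = 0.0274). AT3G03920 and AT4G30150 differed by -0.90 and -0.87. Against the controls, 18 of the 19 passed higher in dC27, 13 in FL3 and 2 in dC26, in contrasts that share the control arrays. Of all probe sets 8.2% passed higher in dC27 and 1.91% in dC26, and the share in FL3 was not counted. Without dC26 array 2 the count fell to 1, AT3G12860 (adjusted p = 0.0375), and it was 4 without dC27 array 1 or either VC array and 5 without either FL3 array.

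The CCT chaperonin lay on the same side. All 8 measured subunits of this added list had a negative difference with non-overlapping arrays, against 20.2% of named loci, and the median was -0.45. Of the 8, 3 passed higher in dC27, against 0.835% of named loci. AT3G11830 was at 429.8 and 387 in dC26, 742 and 705 in dC27, 631 and 615 in FL3 and between 407 and 468 in the controls, a difference of -0.80 ± 0.12 (limma adjusted p = 0.0108). As for ribosome assembly, FL3 lay between the truncated lines and nearer to dC27. AT5G16070 and AT3G18190 differed by -0.76 and -0.67 (adjusted p = 0.0177 and 0.0267). None passed without dC26 array 2 (adjusted p = 0.0594, 0.0897 and 0.0950), and without dC27 array 1 only AT3G11830 did (adjusted p = 0.0428). Against the controls 7 of the 8 passed higher in dC27, 3 in FL3 and none in dC26. The shares of all probe sets were 8.2% in dC27 and 1.91% in dC26, with that in FL3 not counted.

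**Figure D5:**
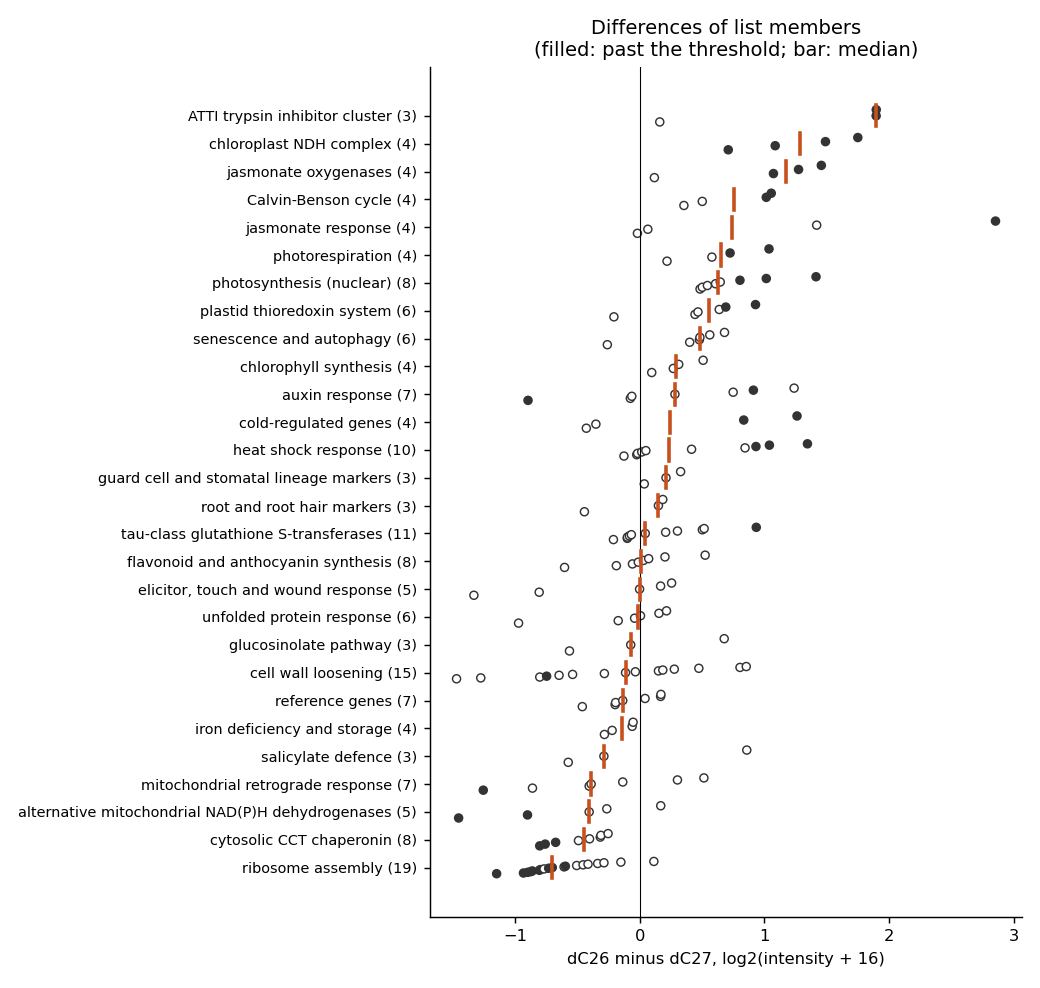
Each point is the difference dC26 minus dC27 of 1 gene on the log2(intensity + 16) scale, for every list with at least 3 measured members (number in brackets), filled where it passed the threshold; orange bars are medians. Medians run from -0.70 for ribosome assembly to 1.90 for the ATTI cluster, and those of the reference genes and the unfolded protein response are -0.14 and -0.02.

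Alternative NAD(P)H dehydrogenases, which feed electrons into the mitochondrial chain without pumping protons, included 2 genes higher in dC27 among 5 in the added list. The share of named loci that passed higher in dC27 was 0.835%. NDB3 was at 51.5 and 35.3 in dC26, 164 and 129 in dC27, 31.9 and 39.2 in FL3 and between 14.9 and 18.0 in the controls. Both truncated lines were above the controls, dC27 further than dC26, with a difference of -1.45 ± 0.18 (limma adjusted p = 0.00532). NDB4 was at 13.8 and 20.4 in dC26, 57.8 and 35.2 in dC27 and between 9.94 and 11.2 in the controls (difference -0.90 ± 0.16, limma adjusted p = 0.0205), and did not pass without dC26 array 1 or array 2 (adjusted p = 0.0688 and 0.0621). NDB2, NDB1 and NDC1 differed by -0.41, -0.26 and 0.17 and did not pass.

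In the mitochondrial retrograde list, whose genes respond to impaired respiration, 1 of 7 passed, higher in dC27, against 0.835% of named loci. The list median was -0.39. AT2G04050 was at 527 and 392 in dC26, 1133 and 1083 in dC27, 914 and 1019.5 in FL3 and between 14.9 and 20.7 in the controls. All TaSIN arrays were far above the controls, and those of dC26 were the lowest among them (difference -1.26 ± 0.16, limma adjusted p = 0.00645). It is 1 of the 5 genes with the largest changes against the controls in the same direction in both truncated lines. The gene with the largest mean change against the controls, AT2G21640, was at 1877 and 1814 in dC26 and 2594 and 2262 in dC27, and the difference of -0.39 ± 0.20 did not pass (limma adjusted p = 0.360, 95% interval -0.85 to 0.066). GSTU22, a glutathione S-transferase, was at 1813 and 2098 in dC26 and 1369 and 1374 in dC27 (difference 0.50 ± 0.29, adjusted p = 0.415, 95% interval -0.15 to 1.16). AT2G32020 was at 362 and 285 in dC26 and 1375 and 501 in dC27, where array 1 stood alone, and did not pass (difference -1.33 ± 0.36, adjusted p = 0.0860, 95% interval -2.14 to -0.52). The fifth of these genes, AT2G18190, is described next.

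The genes with the largest differences higher in dC27 were mostly dim in the controls. AT5G37140 was at 74.7 and 92.5 in dC27, 9.89 and 11.6 in dC26, 9.43 and 8.44 in FL3 and between 8.44 and 9.99 in the controls, so that dC27 alone was above 16, the value added before taking logs (difference -1.89 ± 0.10, limma adjusted p = 0.000215). In AT3G44970, AT1G52820 and AT5G58610 the dC27 arrays were also far above the others, at 80.4 and 87.7, 60.0 and 75.1 and 59.4 and 75.0 in dC27 and at or below 19.6 on every other array. Their differences were -1.57, -1.51 and -1.26, and all 4 genes passed with any 1 array left out. AT5G58610, at 17.8 and 19.6 in dC26 and between 6.55 and 9.04 in the controls, passed against the controls in dC26 too (limma adjusted p = 0.0273). AT2G18190 and AT2G18180, adjacent genes, were instead higher on every TaSIN array than on any control array. AT2G18190 was at 289.9 and 127 in dC26, 567 and 725 in dC27, 459 and 448 in FL3 and between 7.25 and 10.1 in the controls (difference -1.65 ± 0.29, limma adjusted p = 0.0211), and AT2G18180 at 52.9 and 54.5, 193 and 164, 67.4 and 83.9 and between 7.48 and 11.2 (difference -1.47 ± 0.16, adjusted p = 0.00301). In both, dC27 was the highest line and FL3 lay above dC26. Without dC26 array 2 AT2G18190 did not pass (adjusted p = 0.0542).

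AT2G20720, AT5G60250, AT5G05640 and AT1G43910 were likewise higher than the controls on every dC27 array, and dC26 minus dC27 was -1.20, -1.35, -1.35 and -1.26. AT4G26470 was at 130.1 and 62.3 in dC26 and 406 and 247 in dC27, beside FL3 at 40.1 and 40.5 and controls between 23.0 and 44.7. In AT4G24110 and AT3G28500 it was dC26 that lay below the controls, at 24.8 and 16.0 and 98.6 and 75.3, while dC27 was above them at 133 and 88.2 and 218 and 319 (differences -1.79 and -1.46). None of these 7 passed without dC26 array 2 (adjusted p from 0.110 to 0.150).

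In the auxin list 1 of 7 genes passed in each direction, and both encode enzymes that join auxin to amino acids. Among named loci 1.74% passed higher in dC26 and 0.835% higher in dC27. GH3.3 was at 286 and 265 in dC26, 118 and 163 in dC27 and between 274 and 621 in the controls, and WES1 at 190.1 and 229, 407 and 398 and between 678 and 937. WES1 was thus below the controls in both lines and lowest in dC26, and GH3.3 was lowest in dC27. The differences were 0.91 ± 0.19 and -0.90 ± 0.17 (limma adjusted p = 0.0375 and 0.0247), and neither passed without dC26 array 1, dC26 array 2 or dC27 array 1 (adjusted p from 0.0670 to 0.125) or either FL3 array. HAT2 and IAA29 differed by 1.24 ± 0.37 and 0.75 ± 0.39 without passing, with unlike dC27 arrays at 123 and 299 and 27.04 and 101.

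Among expansins and xyloglucan endotransglucosylases, which loosen and rejoin wall polymers, 1 of 29 passed in each direction. Counts this small, and those of the other families in this paragraph, rest on 1 or 2 genes and are not results about the families. Among named loci 2.57% passed. XTH16 was at 391 and 346 in dC26 and 111 and 109 in dC27 (difference 1.61 ± 0.30, limma adjusted p = 0.0270) and EXPA4 at 133 and 135 and 221 and 251 (difference -0.75 ± 0.17, adjusted p = 0.0462). Neither passed without dC26 array 2 (adjusted p = 0.115 and 0.148), and the call of EXPA4 ended without any 1 of the 10 arrays. Of 50 UDP-glycosyltransferases 2 passed, both higher in dC27: UGT76C2, which inactivates cytokinins by N-glucosylation, at 41.5 and 39.98 against 86.9 and 116 (difference -1.04, adjusted p = 0.0148), and UGT71C3 at 18.6 and 19.6 against 60.3 and 37.7 (difference -0.87, adjusted p = 0.0404). Without dC26 array 2 neither passed, nor did UGT71C3 without most other arrays. GSTU27 passed higher in dC26, at 257 and 294 against 127 and 146 (difference 0.94, adjusted p = 0.0247), 1 of 11 tau-class glutathione S-transferases. ATGSTF13 passed higher in dC27 at a dim level, 8.10 and 7.04 against 16.2 and 17.2. These were the 2 calls among 14 glutathione S-transferases matched by name. HIS1-3, a drought-induced linker histone, at 346 and 286 against 104 and 158, and CSLA03, a glucomannan synthase, at 117 and 87.8 against 45.4 and 46.2, passed higher in dC26 (adjusted p = 0.0181 and 0.0418). They were 1 of 8 histone genes and 1 of 10 genes of cellulose and glycan synthesis. UBP23, a ubiquitin protease, passed higher in dC27, at 342 and 269 against 518 and 486 (adjusted p = 0.0393), 1 of 45 genes of the ubiquitin system. Without dC26 array 2 none of the last 7 genes passed (adjusted p from 0.0664 to 0.152).

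All 11 measured autophagy genes had a positive difference, with a median of 0.47, and 9 had non-overlapping arrays, against 21.5% of named loci that were non-overlapping and higher in dC26. None passed the threshold. The closest was ATG8C, an ATG8 protein that coats the growing autophagosome, at 336 and 382 in dC26 and 221 and 233 in dC27 (difference 0.63 ± 0.14, limma adjusted p = 0.0505). ATG8H was at 148 and 174 against 74.9 and 118 (difference 0.68 ± 0.19, adjusted p = 0.0965). No member passed among 26 cytochrome P450 genes, 8 aldehyde dehydrogenases, 7 WRKY factors, 7 bHLH factors or 15 transporters of nitrate, sugars and amino acids. These families were matched by gene name, so a member listed only under its locus can be missing from the counts. Among the genes so matched, CYP71B22 had the largest P450 difference, 0.94 ± 0.25 (limma adjusted p = 0.0840). ALDH11A3 had the largest aldehyde dehydrogenase difference, 0.58 ± 0.15 (adjusted p = 0.0717), and bHLH121 the largest bHLH difference, 0.73 ± 0.18 (adjusted p = 0.0596). The lists of salicylate defence, flavonoids, glucosinolates, iron and the unfolded protein response also had none past the threshold, with medians from -0.29 to 0.0096. Of 7 reference genes none passed, and the largest difference was that of GAPC2, at -0.46 ± 0.15 (adjusted p = 0.138).

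Further lists and families without a call are given by their largest members. CHLM was followed by PORB, a protochlorophyllide reductase, at 0.31 ± 0.20. In salicylate defence the largest were AT1G10340, at 80.2 and 49.2 in dC26 and 38.6 and 19.0 in dC27 (0.86 ± 0.26, limma adjusted p = 0.121), and SAG101, at -0.57 ± 0.21. These differences had opposite signs, and SAG101 did not pass either. UGT78D2 and UGT78D1, which add sugars to flavonols and anthocyanins, were likewise opposed, at -0.60 ± 0.15 and 0.53 ± 0.16 (adjusted p = 0.0717 and 0.129). In the glucosinolate list BCAT4, which starts the chain elongation of methionine, was at 0.68 ± 0.26 and UGT74B1, which glucosylates the precursor, at -0.56 ± 0.30. In the iron list the largest members, AT3G13610 and AT1G47400, differed by -0.28 and -0.22. BZIP28, a membrane-anchored factor of the unfolded protein response, differed by 0.22 against -0.97 for BZIP60. Cpn60beta4, a chloroplast chaperonin subunit, was at 132 and 167 in dC26 and 75.2 and 77.2 in dC27 and did not pass (0.84 ± 0.20, adjusted p = 0.0615), and Hsp70-2 differed by 0.68 ± 0.23. The sugar exporters SWEET4 and SWEET11 differed by 0.55 ± 0.16 and 0.52 ± 0.22. CYP71B29, ALDH10A9, WRKY20, bHLH104, AT3G09000, HRGP1 and PMEAMT differed by 0.64, -0.56, 0.56, 0.22, 0.67, 0.18 and -0.18, and the guard cell markers FMA and SPCH by 0.33 and 0.21.

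The 2 arrays of dC27 disagreed in genes of touch and wounding. CML37, a calmodulin-like protein, was at 115 and 5.79 in dC27 and at or below 12.5 on every other array. WRKY53, a factor of defence and senescence, was at 358 and 16.6 in dC27, 40.1 and 55.1 in dC26 and between 96.8 and 488 in the controls, and STZ, a zinc finger repressor of stress responses, at 1324 and 81.8, 370.4 and 412 and between 334 and 1167. In each, dC27 array 1 was far above array 2. The same held for CML38 at 402 and 67.2, for the pectin methylesterase gene ATPMEPCRB at 76.2 and 9.51, for the wall gene XTH18 at 388 and 36.4 and for BZIP60, a factor of the unfolded protein response, at 1214 and 419. Their differences did not pass (limma adjusted p from 0.224 to 0.948), and none of the 5 genes in the elicitor, touch and wound list did. A fit without dC27 array 2 leaves array 1 alone for that line. Calls of these genes in such a fit would only restate the gap between the arrays. What sets these arrays apart was not tested.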

How the data were processed

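Per the labels' protocols, 200 ng of total RNA from seedlings 12 days old was amplified and biotin-labelled for Affymetrix arrays. The authors deposited 1 linear intensity per probe set and array, from 3.68 to 12648 and with 34.8% of values below 16. No source used here names their background correction, summary or scaling. The number of arrays limits the precision.

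After 64 control probe sets were left out, log2(intensity + 16) was modelled over all 10 arrays with 1 mean per line (limma 3.58.1, R 4.3.3, eBayes with trend), and two-sided p-values were Benjamini-Hochberg adjusted over 22746 probe sets, with a threshold of 0.05. The fit was tested on simulated data. Adding 16 makes the change of dim probe sets look smaller. Of the probe sets, 13513 had 1 gene in the platform annotation, 503 several and 8730 none, and 13436 were matched to 13286 loci of the RefSeq TAIR10.1 gene table. For a locus with more than 1 probe set the brightest was used.

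The 39 process and marker lists and 34 symbol-based families were compiled by locus or symbol from general knowledge. Of 746 listed genes 138 were matched to a probe set with 1 gene, and 19 lists and 21 families had at least 3 measured members. A listed gene with no match can still lie among the probe sets annotated with no gene or several. It was not shown to be missing from the array. The members and lists were chosen with earlier results of these data known, and 9 lists were added after the values were seen. Lists are described by counts and medians, with no set test. Named were the 15 largest differences in each direction among probe sets past the threshold with 1 gene and non-overlapping arrays, from each list or family up to 4 members past the threshold or otherwise the 2 largest, and the 5 largest changes shared by both lines. Same-numbered arrays of dC26 and dC27 did not deviate together (correlation 0.019), so replicate numbers were not used as a block in the main fit. The p-values rest on 1 estimate of the spread between arrays, shared by all 5 lines. Replicate arrays differed less in VC, Col-0 and FL3 than in dC26 and dC27. The SE and p-values can therefore be too small for the truncated lines. The alternatives tried were quantile normalization, a replicate block, centring on array medians, a filter on dim probe sets, pseudocounts of 1 and 64, a variance prior without trend or robust, the truncated lines alone, a 2-fold minimum, each array left out and, added after seeing the data, array weights and 1 array per truncated line. Figures were drawn with matplotlib 3.10.9.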

Additional observations from a re-analysis of the deposited data

Results flagged for a closer look

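In 7 named genes dC26 lay above the controls and dC27 below them, each past the threshold against the mean of the controls. Genes were named in part for their difference between the lines, so that difference is no separate support. Of the 670 probe sets past the threshold between the lines, the control mean lay between the lines for 339. How many of all probe sets passed on both sides is not given here. The contrasts against controls share the control arrays. AT5G62360 was higher than the controls by 1.88 in dC26 and lower in dC27 (-1.22), a difference of 3.093 between the lines. MSRB6 was at 2.05 and -1.04, a difference of 3.086. AT4G17470 was at 0.96 and -0.99, a difference of 1.946. AT2G43530 was at 1.08 and -0.82 and AT2G43550 at 1.11 and -0.79, with differences of 1.899 and 1.898. NdhL was at 0.63 and -0.86, a difference of 1.491, and SBPASE at 0.60 and -0.45, a difference of 1.056. The adjusted p of the difference in limma ran from 0.000497 for MSRB6 to 0.00657 for SBPASE, and that of SBPASE was 0.0523 without dC26 array 2.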

How the results depend on the processing

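Of the named genes past the threshold, none changed sign under the alternatives run. Of these 76 genes, 66 to 76 remained past it under quantile normalization, median centring, leaving out dim probe sets (the filter on the lowest mean log2 values), other pseudocounts, the replicate block and the other variance priors, 4 when the truncated lines were fitted alone, 31 with array weights and 23 without dC26 replicate 2.

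For dC26 against dC27 the count of 670 became 262 with a 2-fold minimum, 446 with a replicate block, 16 for the truncated lines alone and 171 with array weights, and ran from 109 to 1448 when each array was left out. With 1 array per truncated line it was 142 (dC26 array 1, dC27 array 2) or 1990 (dC26 array 2, dC27 array 1), the lone arrays being taken to vary like the other lines. The share higher in dC26, 72.1%, was 83.2% with the 2-fold minimum, 53.6% without dC26 replicate 1 and 46.3% without dC27 replicate 2, and 66.4% and 74.1% with quantile normalization and median centring. For VC against Col-0 the count of 6 (5 higher in VC) became 3 with a 2-fold minimum, 2 with a replicate block, 0 without dim probe sets or without the trend (1594 at an unadjusted p under 0.05 in the limma fit reported), 13 with a robust prior, 15 for those lines alone, 39 with 1 array per truncated line, 14 with array weights and 2 to 48 when each array was left out. Median centring gave 6 higher and 3 lower. The causes were not tested.

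The replicate numbers were not used to pair the samples, and each correlation between same-numbered deviations lay between -0.200 and 0.0859. Whether same-numbered arrays were handled together was not tested. Only 2 arrays measure each line, dim genes have compressed differences, and the level of the transgene is unknown.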
